A study of Mus musculus with 10 samples.

Results

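The nuclear genes of respiratory complexes II to IV were examined in the hippocampus of nPGC-1α mice and of their PGC-1αf/f littermates. The group holds 36 genes that were listed by name, namely the subunits of complex II, of complex III and of complex IV, cytochrome c, 3 tissue isoforms of complex IV subunits, the supercomplex factor Cox7a2l and 8 assembly factors. A gene was measured by the array probe whose RefSeq accession belongs to it, and the brightest probe stood for a gene with several probes. Of the 36 genes, 35 had a matched probe and 34 passed the filters of the test, out of 17597 named genes tested on the array. The rule that lists the genes uses no measured value, but the genes were chosen with earlier results of these data known.

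Complex II, or succinate dehydrogenase, passes electrons from the citric acid cycle to ubiquinone. Complex III passes them on to cytochrome c, and complex IV, or cytochrome c oxidase, hands them to oxygen. All complex II subunits are encoded in the nucleus, whereas complexes III and IV also contain subunits encoded by mitochondrial DNA. Neurons cover most of their energy demand by this pathway. PGC-1α is a transcriptional coactivator without DNA binding of its own, which acts on nuclear genes of the respiratory chain through nuclear respiratory factors and oestrogen-related receptors.

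PGC-1αf/f mice carry a PGC-1α transgene in the Rosa26 locus behind a floxed PGK-neo-STOP cassette and lack Cre. nPGC-1α mice carry the same transgene together with Eno2-Cre, which is driven by a promoter of neurons and removes the cassette, and they express IRES-eGFP. Both groups were on the C57BL/6 background, and the labels give male mice of 12 weeks. There were 5 arrays of total hippocampal RNA per group, and the comparison asks what neuronal PGC-1α overexpression does to hippocampal mRNA expression. The labels do not say whether an array is a single mouse, so that p-values measure the spread between these samples. They also name the cell type as neuron, but the RNA is that of the tissue, and 6 of 6 astrocyte markers, 6 of 6 oligodendrocyte markers and 6 of 6 endothelial markers were well above background on all 10 arrays, as were 6 of 6 neuronal markers. In such tissue, fewer cells of a type and less RNA per cell cannot be told apart.

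Levels are log2 processed intensities from which the log2 of each array's 75th percentile was subtracted, so that a level of 0 equals that percentile. A difference is the nPGC-1α mean minus the PGC-1αf/f mean on this log2 scale. Levels of different probes are not compared with each other, since probes differ in how brightly they read a transcript.

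The arrays differed in quality, in part along the groups. Gene spots well above background made up 74.5 to 81.5% per array in the PGC-1αf/f group, against 67.2 to 73.4% in the nPGC-1α group, and the background noise that Feature Extraction estimated was 5.16 to 8.98 against 10.7 to 20.9 intensity units, so that neither measure overlapped between the groups. Spots marked as outliers made up 10.5% of PGC-1αf/f replicate 1 and 11.6% of nPGC-1α replicate 1, against 0.192 to 4.75% of the other arrays. The Y-linked transcript Eif2s3y was high, at 1.18 to 1.43, on 4 arrays, of which PGC-1αf/f replicate 1 was 1 and the other three were nPGC-1α replicates 1, 3 and 5, and at -8.86 to -6.16 on the other 6 arrays, although the labels give every mouse as male. The brightest tested probe of Xist, a transcript of the X chromosome, lay at -5.80 to -2.43 over all 10 arrays. Its difference between the groups was -0.65 (limma p 0.362), and its relation to the level of Eif2s3y was not tested. The level of choroid plexus markers relative to their mean over arrays, taken as the median of 7 genes, ranged from -0.96 to 2.07 within the PGC-1αf/f group and from -1.07 to 2.86 within the nPGC-1α group. Microglia markers, on the same relative scale, lay at -0.02 to 0.06 in the PGC-1αf/f group and at -0.15 to -0.03 in the nPGC-1α group without overlap, and 1 of 5 was lower at an unadjusted p of 0.05 (median difference -0.14). Of the mural cell markers, 2 of 7 were higher (median difference 0.16), and 1 of 6 was higher among those of excitatory neurons and of parvalbumin interneurons each. Among all probes tested, 3.39% were higher and 8.52% lower at that threshold, and 2.87% had groups that did not overlap. Oligodendrocyte markers had a median difference of 0.29, with 0 of 6 at an unadjusted p of 0.05. The part of these measures in the results below was not tested, except where a value without the arrays in question is given.

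Ppargc1a, which encodes PGC-1α, served to check the labels. The mRNA level was 2.20 ± 0.08 in the PGC-1αf/f group against 2.20 ± 0.11 in the nPGC-1α group (SD, n = 5 each). They differed by 0.00 (standard error 0.09, limma adjusted p 0.99). Ppargc1a mRNA therefore did not separate the groups, and all directions below rest on the labels. Whether the probe reads the transgene is not known. The paper reports higher PGC-1α protein by Western blot in the hippocampus of nPGC-1α mice. Protein is another measure than mRNA, and the arrays hold no protein values.

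None of the 34 tested genes of complexes II to IV passed the test. At an adjusted p of 0.05, 0 of 34 were called, where 0.00255% of all 39142 probes tested were called. At an unadjusted p of 0.05, 0 of 34 differed by limma, against 11.9% of all probes, and exact permutation and Mann-Whitney tests gave 0 of 34 as well. The groups overlapped for all 34 genes, where 2.87% of all probes had groups that did not overlap. The background itself falls with brightness, from 25.1% in the dimmest 10% of the probes to 1.63% in the brightest 10%, and 25 of the 34 genes lay in that brightest class. A count of 0 is therefore near the share that probes of like brightness gave. The lowest p among the 34 was 0.0651 by limma, with an adjusted p of 0.451, for Cox15.

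**Figure D1:**
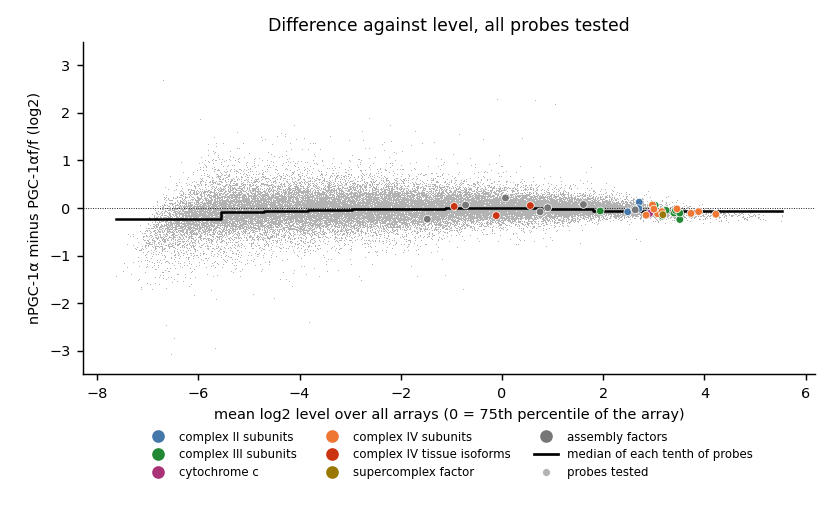
Difference between groups (nPGC-1α minus PGC-1αf/f, log2) against the mean log2 level over all arrays, for each of the 39142 probes tested (grey) and for the 34 genes of complexes II to IV, coloured by role. The black line is the median of each class of 10% of the probes by level, and 25 of the 34 genes lie in the brightest 10%, where that median is -0.06.

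The intervals bound the size of the differences. The standard error of a difference was 0.07 to 0.21 over the 34 genes with a median of 0.11, against 0.14 over all probes, and it was below the latter for 32 of the 34 genes. The 95% intervals of all 34 genes lay within a 1.5-fold change either way, from 0.685-fold at the lowest (Sco1) to 1.43-fold at the highest (Cox6a2). For the 23 core subunits, with cytochrome c and Cox7a2l counted among them, the intervals ran from 0.696-fold to 1.37-fold. Under quantile normalisation, 30 of the 34 intervals lay within 1.5-fold, and those of Sdhb, Cox6a2, Cox15 and Sco1 reached beyond it, from 0.617-fold (Sco1) to 1.58-fold (Cox6a2). With 5 arrays per group, a change of a single gene inside its own interval is not excluded.

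The signs leaned to lower values, and the lean turned with the scaling. Of the 34 genes, 9 were higher and 25 lower on the nPGC-1α arrays, with a median difference of -0.07, against a median of -0.04 over all probes and of -0.06 over the brightest 10%. Under quantile normalisation, 23 were higher and 11 lower with a median of 0.04, and 0 of 34 passed an unadjusted p of 0.05 where 6.92% of all probes did. The median was then 0.03 over all probes and 0.02 over the brightest 10%. The authors' log2 values gave 21 higher and 13 lower with a median of 0.02. No direction can therefore be given for the group as a whole. On the 8 arrays of slide 1, 7 of 33 genes were higher and 26 lower, with a median of -0.10. There the PGC-1αf/f arrays all lay in row 1 and the nPGC-1α arrays all in row 2, so that position and group cannot be told apart on this slide. Slide 2 held replicate 5 of both groups, and there 21 of 30 genes were higher and 9 lower, with a median of 0.05 and no test, since each group has 1 array.

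**Figure D2:**
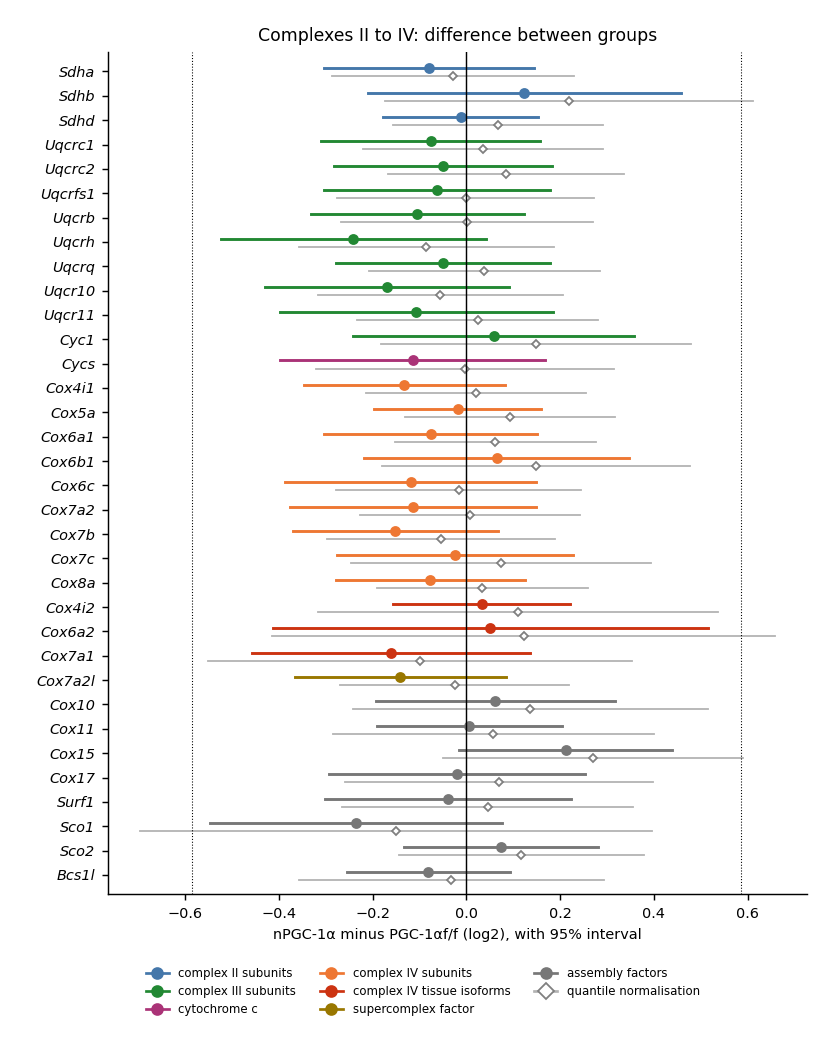
Difference between nPGC-1α and PGC-1αf/f (log2, horizontal axis) with its 95% interval for each of the 34 genes, coloured by role, with the values after quantile normalisation below each in grey. Dotted lines mark a 1.5-fold change either way, and every interval includes 0 in both scalings.

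Complex II subunits had a median difference of -0.01, with 1 of 3 higher and 2 lower, and of 0.07 under quantile normalisation, with 2 higher and 1 lower. Sdha, the flavoprotein that oxidises succinate, was 2.52 ± 0.15 (SD, n = 5) in the PGC-1αf/f group against 2.44 ± 0.07 (SD, n = 4) in the nPGC-1α group, and its difference was -0.08. Sdhb, the iron-sulfur subunit, differed by 0.12 with a standard error of 0.15, on 5 and 3 values. Sdhd, a membrane anchor, differed by -0.01 with a standard error of 0.07, the smallest error of the 34 genes. A second probe of Sdha differed by 0.21 and a second probe of Sdhb by -0.09, both opposite in sign to the brighter probe. The other anchor, Sdhc, was not tested, since outlier marks on 5 arrays left its probe with 4 and 1 values. With all spots kept, Sdhc differed by 0.00 with a standard error of 0.11.

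Complex III subunits had a median difference of -0.08, with 1 of 9 higher and 8 lower, and under quantile normalisation the median was 0.02, with 6 higher and 3 lower. The gene with the higher value was Cyc1, the haem subunit that reduces cytochrome c, at 0.06 with a standard error of 0.13. The core proteins Uqcrc1 and Uqcrc2 differed by -0.08 and -0.05, and the Rieske iron-sulfur protein Uqcrfs1 differed by -0.06. The small subunits Uqcrb, Uqcrq and Uqcr11 differed by -0.10, -0.05 and -0.11.

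Uqcrh, the hinge protein of complex III, had the lowest p of the subunits. Its level was 3.95, 3.71, 3.33, 3.53 and 3.59 on PGC-1αf/f replicates 1 to 5 and 3.38, 3.32, 3.33 and 3.49 on nPGC-1α replicates 2 to 5, with replicate 1 left out as an outlier spot. The 2 highest values were those of PGC-1αf/f replicates 1 and 2, whereas PGC-1αf/f replicate 3 lay among the nPGC-1α arrays. The difference was -0.24 with a standard error of 0.13 (limma p 0.0857, adjusted 0.486, exact permutation p 0.0635). It was -0.16 without PGC-1αf/f replicate 1 and -0.09 under quantile normalisation. With trend and robust eBayes its limma p was 0.0464, where 11.7% of all probes passed an unadjusted p of 0.05. The promoter of Uqcrh is printed further below with the motif found in it.

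Uqcr10, a small subunit of complex III, was 3.58, 3.29, 2.93, 3.20 and 3.26 on PGC-1αf/f replicates 1 to 5. It was 3.22, 3.06, 2.98, 3.00 and 3.13 on nPGC-1α replicates 1 to 5. PGC-1αf/f replicate 1 was the highest and PGC-1αf/f replicate 3 the lowest of all arrays, so the nPGC-1α values lay inside the PGC-1αf/f range. The difference was -0.17 with a standard error of 0.12 (limma p 0.178), and a second probe differed by -0.07. Without PGC-1αf/f replicate 1 the difference was -0.09.

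Cytochrome c itself, the soluble carrier between complexes III and IV, was measured as Cycs. It was 2.97 ± 0.14 (SD, n = 4) in the PGC-1αf/f group against 2.85 ± 0.12 (SD, n = 3) in the nPGC-1α group. The difference was -0.11 with a standard error of 0.12, and its second probe differed by -0.02.

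The 9 subunits of complex IV with a single or common isoform had a median difference of -0.08, with 1 higher and 8 lower, and under quantile normalisation the median was 0.03, with 7 higher and 2 lower. The gene with the higher value was Cox6b1, a subunit at the contact between the monomers of the complex, at 0.06 on 3 and 4 values. Cox5a differed by -0.02, Cox7c by -0.02, Cox8a by -0.08, Cox6c by -0.12 and Cox6a1 by -0.08. Cox5b had no matched probe and was not analysed here.

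Cox7b had the lowest p of the complex IV subunits. Its level was 3.13, 2.81, 2.69, 3.00 and 2.98 on PGC-1αf/f replicates 1 to 5 and 2.88, 2.66, 2.70, 2.81 and 2.80 on nPGC-1α replicates 1 to 5. The 3 highest values were PGC-1αf/f arrays, and the other two PGC-1αf/f arrays lay inside the nPGC-1α range. The difference was -0.15 with a standard error of 0.10 (limma p 0.157).

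Cox7a2l, also known as a factor that joins complexes III and IV into supercomplexes, was 3.48, 3.25, 3.01, 3.30 and 3.20 on PGC-1αf/f replicates 1 to 5. On nPGC-1α replicates 1 to 5 it was 3.30, 3.08, 3.06, 3.02 and 3.08. Replicate 1 was the highest array in each group, and PGC-1αf/f replicate 3 was the lowest of all. The difference was -0.14 with a standard error of 0.10 (limma p 0.197), and -0.02 under quantile normalisation.

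**Figure D3:**
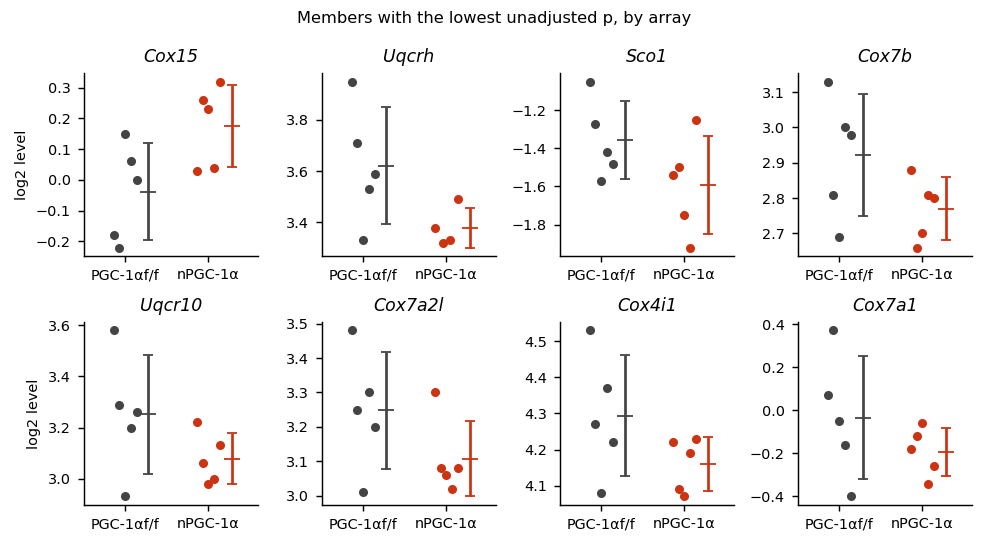
Log2 level on each array for the 8 genes with the lowest unadjusted p, with PGC-1αf/f in grey and nPGC-1α in red. Points are arrays and bars are the mean ± SD, on vertical axes that do not start at 0, and the groups overlap for every gene.

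Complex IV exchanges some subunits between tissues. Cox6a2 and Cox7a1 are the isoforms of heart and skeletal muscle, and Cox4i2 is the isoform of lung that is known to respond to oxygen, whereas Cox6a1, Cox7a2 and Cox4i1 are the common partners. All of these were well above background on all 10 arrays. For each pair, the log2 level of the isoform minus that of its partner was taken within each array, and groups were compared by an exact two-sided permutation test over 3 pairs, whose smallest possible p with 5 arrays per group is 0.00794. Such a value shows unequal change within a pair, not which gene changed.

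Cox4i2 was -0.82, -1.04, -0.95, -0.87 and -1.13 on PGC-1αf/f replicates 1 to 5 and -0.83, -0.97, -0.96, -0.93 and -0.96 on nPGC-1α replicates 1 to 5. The nPGC-1α values all lay inside the range of the PGC-1αf/f values, with a difference of 0.03. Cox4i1 was 4.53, 4.27, 4.08, 4.37 and 4.22 on PGC-1αf/f replicates 1 to 5 and 4.22, 4.09, 4.07, 4.19 and 4.23 on nPGC-1α replicates 1 to 5. Cox4i1 was highest on PGC-1αf/f replicates 1, 4 and 2, with a difference of -0.13 (standard error 0.10, limma p 0.202). The ratio of Cox4i2 to Cox4i1 was -5.25 ± 0.14 in the PGC-1αf/f group against -5.09 ± 0.06 in the nPGC-1α group (SD, n = 5 each). It differed by 0.16 with an exact permutation p of 0.0556, adjusted 0.167. PGC-1αf/f replicate 3, at -5.02, lay above all nPGC-1α arrays, and the other PGC-1αf/f arrays, at -5.35 to -5.24, lay below all of them. Without PGC-1αf/f replicate 3 the ratio differed by 0.22, with an exact permutation p of 0.00794 and an adjusted p of 0.0238. That array was the only PGC-1αf/f array not below all nPGC-1α arrays, so its omission separates the groups by construction. The p is then the lowest that the test can give and is no support for a difference. With all arrays, the difference of the ratio was 0.02 in the authors' log2 values and 0.09 under quantile normalisation.

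Cox6a2 was 0.93, -0.12, 0.52, 0.50 and 0.84 on PGC-1αf/f replicates 1 to 5 and 0.41, 0.25, 0.72, 0.48 and 1.07 on nPGC-1α replicates 1 to 5. It spread more than any other of the 34 genes in both groups, with a standard error of 0.21 for a difference of 0.05. Cox6a1 was 4.14, 3.96, 3.73, 3.92 and 3.87 on the former and 4.05, 3.82, 3.70, 3.74 and 3.93 on the latter arrays in the same order, so that replicate 1 was the highest of both groups. The ratio of Cox6a2 to Cox6a1 differed by 0.13 (exact permutation p 0.627, adjusted 0.722). Of the other skeletal muscle genes followed as markers, 3 of 5 were higher at an unadjusted p of 0.05, where 3.39% of all probes were, with a median difference of 0.56 over the list. Relative to their mean over arrays, these 5 genes stood at -0.37 to 0.02 in the PGC-1αf/f group and at 0.00 to 0.45 in the nPGC-1α group, and Ckm was not well above background on every array. Their part in the values of Cox6a2 and Cox7a1 was not tested.

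Cox7a1 was 0.07, 0.37, -0.05, -0.16 and -0.40 on PGC-1αf/f replicates 1 to 5 and -0.18, -0.12, -0.06, -0.34 and -0.26 on nPGC-1α replicates 1 to 5. PGC-1αf/f replicates 1, 2 and 3 were the 3 highest arrays and PGC-1αf/f replicate 5 the lowest, with a difference of -0.16 and a standard error of 0.13 (limma p 0.259). Cox7a2 was 4.11, 3.87, 3.56, 3.78 and 3.63 on PGC-1αf/f replicates 1 to 5 and 3.87, 3.65, 3.56, 3.54 and 3.77 on nPGC-1α replicates 1 to 5. Its difference was -0.11, and the ratio of Cox7a1 to Cox7a2 differed by -0.05 (exact permutation p 0.722, adjusted 0.722).

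**Figure D4:**
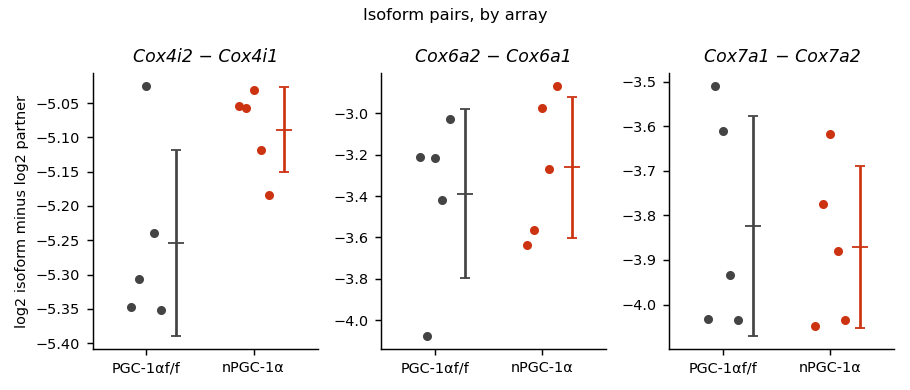
Log2 level of the tissue isoform minus that of its common partner on each array for the 3 pairs, with PGC-1αf/f in grey and nPGC-1α in red. Bars are the mean ± SD, and the groups differ by 0.16, 0.13 and -0.05 from left to right, with overlap in each pair.

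The 8 assembly factors had a median difference of -0.01, with 4 higher and 4 lower, and under quantile normalisation 6 were higher and 2 lower with a median of 0.06. The copper chaperones Cox17, Cox11 and Sco2 differed by -0.02, 0.01 and 0.07. Surf1, an early assembly factor of complex IV, differed by -0.04, and Cox10, which makes haem O for the complex, differed by 0.06. Bcs1l, which inserts the Rieske protein into complex III, differed by -0.08, and its other probes by -0.02 and 0.23.

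Cox15, which converts haem O to haem A for complex IV, had the lowest p of all 34 genes. Its level was -0.18, -0.22, 0.15, 0.06 and 0.00 on PGC-1αf/f replicates 1 to 5 and 0.03, 0.26, 0.23, 0.04 and 0.32 on nPGC-1α replicates 1 to 5. The 3 highest arrays were nPGC-1α and the 3 lowest PGC-1αf/f, while the groups overlapped between 0.03 and 0.15. The difference was 0.21 with a standard error of 0.10, and the second probe, at the dim end of the array, differed by 0.19 with a standard error of 0.24. The limma p of 0.0651 was 0.451 after adjustment, and the exact permutation p was 0.0556. Cox15 was higher on the nPGC-1α arrays under every alternative fit, between 0.14 and 0.27. It passed an unadjusted p of 0.05 without PGC-1αf/f replicate 3 (0.26), where 13.8% of all probes did, and without nPGC-1α replicate 1 (0.25), where 11.9% did.

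Sco1, a copper chaperone of complex IV, was lower on the nPGC-1α arrays by more than any other assembly factor. Its level was -1.05, -1.27, -1.57, -1.42 and -1.48 on PGC-1αf/f replicates 1 to 5 and -1.54, -1.50, -1.75, -1.92 and -1.25 on nPGC-1α replicates 1 to 5. The highest array was PGC-1αf/f replicate 1, and the second highest was nPGC-1α replicate 5. The second probe, at the dim end of the array, differed by -0.19 with a standard error of 0.14. For the brightest probe the difference was -0.23 with a standard error of 0.14 (limma p 0.125). It passed an unadjusted p of 0.05 on slide 1 alone (-0.35, limma p 0.0367), where 12.3% of all probes did, and without nPGC-1α replicate 5 (-0.32), the array of its group that lay on slide 2, where 11.6% did. It was -0.15 under quantile normalisation (limma p 0.559) and -0.16 without PGC-1αf/f replicate 1 (limma p 0.281). With the Eif2s3y class of the arrays as a covariate, the differences of Sco1 and Uqcrh were -0.34 and -0.30, at limma p 0.0342 and 0.0353, where 11.2% of all probes were called.

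A further 12 probes of 11 genes were tested beside the brightest probes, and 0 of 12 passed an unadjusted p of 0.05. Of the 12, 3 had the opposite sign, those of Sdha, Sdhb and Bcs1l.

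The subunits of complexes III and IV varied together from array to array. The deviation of a gene is its level minus its own mean over the arrays. On PGC-1αf/f replicate 1 the median deviation was 0.41 over the measured complex III subunits and 0.28 over those of complex IV, but -0.04 over complex II subunits and 0.06 over assembly factors. On PGC-1αf/f replicate 3 it was -0.15 for complex III and -0.16 for complex IV. The range of PGC-1αf/f arrays thus exceeded the group differences of -0.08 in both complexes. PGC-1αf/f replicate 1 was the highest array of its group for 16 of the 25 genes with a value there, and the brightest 10% of all probes had a median deviation of 0.17 on it. On nPGC-1α replicate 1 the brightest 10% stood at 0.11, and 15 of 25 genes were the highest of their group there. Outlier marks removed 24 of 340 values in all, of which 18 of 68 lay on replicate 1 of the groups. Without replicate 1 of both groups, the median difference of the 34 genes was -0.07, the same as with them, and without PGC-1αf/f replicate 1 alone it was -0.03. Without replicate 4 of the PGC-1αf/f group and replicate 3 of the nPGC-1α group, the arrays with the highest choroid plexus markers, 30 of the genes could be tested, of which 12 were higher and 18 lower, with 0 at an unadjusted p of 0.05.

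**Figure D5:**
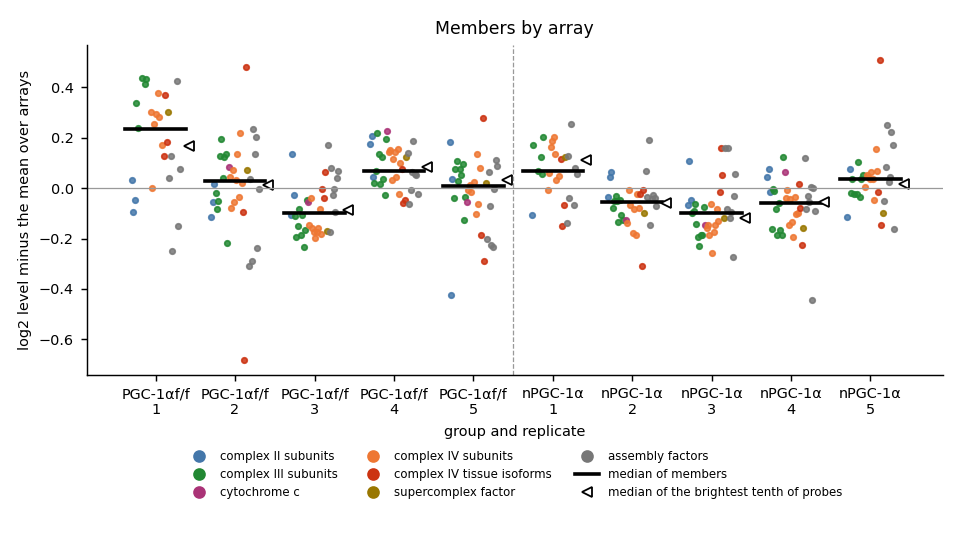
Log2 level minus the mean over arrays for each of the 34 genes (points, coloured by role) on each of the 10 arrays. Black lines are the medians over the genes and open triangles the medians of the brightest 10% of all probes, and both follow each other from array to array, highest on PGC-1αf/f replicate 1.

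The SD between arrays was larger in the PGC-1αf/f group for 29 of the 34 genes (85.3%), against 71.8% of the brightest 10% of probes and 66.3% of all probes tested. The median SD of the 34 genes was 0.17 in the PGC-1αf/f group against 0.10 in the nPGC-1α group. Without replicate 1 of both groups it was larger for 28 of 34 genes (82.4%), with medians of 0.14 and 0.08. No test of the spread was made.

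The promoters were searched for the motifs of factors through which PGC-1α is known to act, in RefSeq sequence of GRCm38.p6 from 250 bases before to 50 bases after the start. The table held a promoter for 26 of the 36 genes. The nuclear respiratory factor 1 motif (GCGCA, then any base, then GCGC, on either strand) was in 4 of the 26 (15.4%, Sdha, Sdhd, Uqcrc1 and Cox6a1), against 4.6% of all 32851 promoters. The ETS motif CCGGAAG, on either strand as well and bound by nuclear respiratory factor 2, was in 12 of the 26 (46.2%), against 8.86% of all promoters. The motif AAGGTCA of oestrogen-related receptors was in 1 of the 26 (3.85%, Sdhd), against 4.72%. No match of a motif overlapped that of another motif. The sequences of 250 bases before the start are shown for Sdha, with most matches to the first motif, for Cox6a1 with both of the former motifs, for Uqcrh with the lowest p of the subunits, and for the muscle isoform Cox7a1, with no match. Each runs 5′ to 3′ along the gene's strand, and capitals mark the matches.
Sdha, chr13:74350241-74350490, minus strand: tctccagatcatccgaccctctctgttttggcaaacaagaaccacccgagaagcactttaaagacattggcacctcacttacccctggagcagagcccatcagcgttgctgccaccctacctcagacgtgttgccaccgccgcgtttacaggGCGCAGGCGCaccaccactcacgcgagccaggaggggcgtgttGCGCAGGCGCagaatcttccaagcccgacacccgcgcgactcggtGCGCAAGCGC
Cox6a1, chr5:115348959-115349208, minus strand: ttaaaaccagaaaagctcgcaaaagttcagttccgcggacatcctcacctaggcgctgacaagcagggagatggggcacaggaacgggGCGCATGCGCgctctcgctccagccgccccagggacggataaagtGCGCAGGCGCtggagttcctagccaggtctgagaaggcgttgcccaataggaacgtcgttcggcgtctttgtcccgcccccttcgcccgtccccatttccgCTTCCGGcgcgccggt
Uqcrh, chr4:116075071-116075320, minus strand: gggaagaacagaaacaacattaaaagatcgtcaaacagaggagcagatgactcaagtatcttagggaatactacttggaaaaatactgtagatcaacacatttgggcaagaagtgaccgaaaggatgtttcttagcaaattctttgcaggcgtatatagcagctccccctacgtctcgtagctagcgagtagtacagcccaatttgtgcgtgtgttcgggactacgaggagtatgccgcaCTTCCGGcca
Cox7a1, chr7:30183921-30184170, plus strand: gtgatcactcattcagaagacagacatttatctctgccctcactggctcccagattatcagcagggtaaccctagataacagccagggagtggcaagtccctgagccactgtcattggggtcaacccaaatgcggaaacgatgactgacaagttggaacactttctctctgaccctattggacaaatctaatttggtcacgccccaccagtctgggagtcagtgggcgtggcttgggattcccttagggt

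The differences between groups did not separate by motif. The median difference was -0.08 for the 4 tested genes with the first motif, which ranged from -0.08 to -0.01, and -0.08 for the 21 tested genes whose window lacked it. It was -0.06 for the 12 with the ETS motif, which held both Uqcrh and Cox15, and -0.08 for the 13 without. These are descriptions of letters in a window and say nothing of binding.

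Other genes of complexes II to V were taken from a list of 60, of which 51 were tested and 4, encoded by mitochondrial DNA, had no matched probe. At an unadjusted p of 0.05, 1 was higher and 2 were lower, against 3.39% and 8.52% of all probes in these directions, and 0 passed an adjusted p of 0.05. The median difference of the 51 was -0.09, with 8 higher and 43 lower, and under quantile normalisation it was -0.01, with 22 higher and 29 lower. Among them, 16 of 17 ATP synthase genes were lower with a median of -0.12, and under quantile normalisation 10 of 17 were lower with a median of -0.02.

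Hccs, the lyase that attaches haem to cytochromes c and c1, was 3.84 ± 0.16 (SD, n = 5) in the PGC-1αf/f group against 3.54 ± 0.13 (SD, n = 4) in the nPGC-1α group. It differed by -0.30 with a standard error of 0.11 (limma p 0.0236, adjusted 0.34). Atpaf1, an assembly factor of ATP synthase, differed by -0.22 (limma p 0.0307, adjusted 0.367). Coa7, an assembly factor of complex IV, was -0.38 ± 0.27 in the PGC-1αf/f group against -0.08 ± 0.05 in the nPGC-1α group (SD, n = 5 each), with a difference of 0.30 (limma p 0.037, adjusted 0.387). Under quantile normalisation Coa7 and Pet117, another assembly factor of complex IV, passed the unadjusted threshold, at 0.35 and 0.49 (limma p 0.0411 and 0.0392), whereas Hccs and Atpaf1 did not, at -0.12 and -0.17. Of the others named by rank in the main scaling, Pet117 differed by 0.42, Fdx2 by -0.18 and Cox6b2 by -0.35, with limma p of 0.0617, 0.0623 and 0.0824. The 3 genes of 51 at an unadjusted p of 0.05 became 0 of 51 without PGC-1αf/f replicate 1, where 4243 of 40967 probes passed. They became 7 of 51 without PGC-1αf/f replicate 3, where 13.8% of all probes passed. Without nPGC-1α replicate 3 the count was 1 of 50, against 3207 of 38421 probes. Without nPGC-1α replicate 4 the count was 1 of 50 as well, against 3801 of 38154 probes.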

How the data were processed

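Total hippocampal RNA was measured on 1-colour Agilent mouse arrays, 5 per group. The deposited scanner files hold an intensity per spot, background-subtracted and corrected for trends across the array by Feature Extraction 11.5.1.1, per the file headers, and not normalised between arrays. A second deposited table holds log2 values made by the authors for 41606 probes, with its normalisation not given in the sources used here, and it was an alternative. Its columns correlated with the scanner values at 0.999 to 1.00, and their medians were 9.92 to 9.93.

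Control spots and outlier spots were left out, the log2 intensity was taken, and the log2 of each array's 75th percentile was subtracted. A probe was kept if it was well above background on every array of a group and had no fewer than 3 values per group (39142 probes). Differences were tested two-sided in limma 3.58.1 (lmFit, then eBayes; R 4.3.3), without covariates, and adjusted by Benjamini-Hochberg over all probes kept. Data were simulated for this comparison over 39142 probes, with independent noise, no missing values and changes in randomly drawn probes. There the test recovered 0% of changes of 0.5, 71% of changes of 1 and 95% of changes of 2 on the log2 scale, at an adjusted p of 0.05. Recovery for the listed genes, most of which had a smaller standard error than the median probe, was not computed. The number of arrays limits the precision. Probes were named by accession through a RefSeq table of GRCm38.p6 (33767 of 56605 probes, 59.7%). The arrays were designed on another build, so probe coordinates are not given.

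Values on every array are given for the 8 genes with the lowest p and for the isoform pairs, and the 6 other pathway genes with the lowest p are named. The genes and lists were chosen with earlier results of these data known. Alternatives were other scalings, background corrections and filters, slide, replicate number or Eif2s3y class (level above -4) in the model, other variance models, and the omission of each array in turn. Python 3.11.15 with pandas 2.3.3 read the files.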

Additional observations from a re-analysis of the deposited data

Results flagged for a closer look

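The level of Cox7a2l on nPGC-1α replicate 1 was 3.30, whereas the other nPGC-1α arrays lay between 3.02 and 3.08, so that this array stood apart from its group. It was the only such array among 72 groups of values examined, where about 1 in 20 groups, or 3.6, is expected to hold such an array by chance. Replicate 1 was also the highest PGC-1αf/f array for Cox7a2l, at 3.48, and 11.6% of the gene spots of nPGC-1α replicate 1 were marked as outliers. Whether these marks bear on the value was not tested.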

How the results depend on the processing

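Across the alternatives run, 0 of the 34 genes passed an adjusted p of 0.05, with a lowest adjusted p of 0.321. The median difference of the 34 genes, -0.07, was 0.037 under quantile normalisation and 0.037 under normexp with quantile normalisation, and the sign changed for 14 and 16 genes. That of the assembly factors, -0.01, was 0.063 and 0.090 in these fits. At an unadjusted p of 0.05, the 0 genes became 1 of 33 on slide 1 alone (Sco1, where 12.3% of all probes passed), 1 of 34 with trend and robust eBayes (Uqcrh, -0.24, 11.7% of all probes) and 2 of 34 with the Eif2s3y class as a covariate (11.2% of all probes), where the median of the tissue isoforms was -0.12. The 3 of 51 other pathway genes became 1 of 50 on slide 1 alone, where 12.3% of all probes passed. They became 7 of 51 with the Eif2s3y class, where 11.2% passed. With array weights the count was 1 of 51, where 4241 of 39142 probes passed. Outlier spots kept with quantile normalisation, and the omission of PGC-1αf/f replicate 4 with nPGC-1α replicate 3, which had the highest choroid plexus markers, were chosen after seeing the data. The former gave 0.011 for cytochrome c, and the latter 1 of 50 other pathway genes, where 4331 of 38197 probes passed. The cause was not tested.

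Leaving out each array in turn gave 0 to 3 genes at an unadjusted p of 0.05. These were Uqcrh (-0.31), Uqcr10 (-0.25) and Cox15 (0.26) of 33 without PGC-1αf/f replicate 3 (13.8% of all probes), Cox15 without nPGC-1α replicate 1 (11.9%) and Sco1 without nPGC-1α replicate 5 (11.6%). The share among probes of like brightness was not computed for these fits. In the main fit, 1.63% of the brightest 10% of probes passed, and 25 of the 34 genes lay in that class. The same omissions gave 0 to 7 other pathway genes, the 7 of 51 where 13.8% of all probes passed. They also gave medians of -0.11 to -0.03 over the 34 genes, -0.03 to 0.02 over assembly factors and -0.07 to 0.07 over tissue isoforms. The range was -0.15 to -0.06 for cytochrome c and 0.14 to 0.22 for Cox4i2 against Cox4i1. The 4662 of 39142 probes with an unadjusted p below 0.05 became 2710 under quantile normalisation and 2619 under normexp with quantile normalisation, of 39142 each. Without a filter they became 10750 of 54980, and without PGC-1αf/f replicate 2 they became 3100 of 38839.

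Same-numbered arrays deviated together at correlations of 0.0776 to 0.356, below 0.1 for replicate 2, so the number was not taken as a pairing. With a replicate block, 0 of the 34 genes and 6486 of 39142 probes passed an unadjusted p of 0.05, with a median of -0.08 over the genes. Arrays 1, 2 and 5 of the PGC-1αf/f group correlated best with their own number.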
